A study of Mus musculus with 3 samples.

Results

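The 10 genes examined here encode transcription factors of the epidermal lineage, named as a list from 21851 protein-coding genes of the mouse. They were divided into 5 basal factors (Trp63, Klf5, Tfap2a, Tfap2c and Grhl2) and 5 differentiation factors (Klf4, Grhl1, Grhl3, Ovol1 and Gata3). For each gene, open chromatin was read in a window from 50 kb before its start site to 50 kb after its end in GRCm38. The assay was Omni-ATAC-seq, where the transposase Tn5 cuts accessible DNA of permeabilized nuclei and attaches sequencing adapters. The cells were hair follicle stem cells (HFSCs) sorted as CD34+CD49f+Sca-1- from the back skin of mice aged 6 months whose hair follicles were resting (telogen). There was 1 wild-type library (labelled Msx2-WT, here WT), and there were 2 of the Msx2 knockout (labelled Msx2-KO, here KO1 and KO2 for replicates 1 and 2). The knockout is carried in every cell of the animal and rests on a neo cassette placed before exon 2 of Msx2, a homeobox gene. The wild-type controls were C57BL/6J mice matched for the stage of the hair cycle, and nothing in the labels says how many animals stand behind a library. WT has one batch label and KO1 and KO2 share another, so that batch and genotype cannot be told apart.

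Hair follicles and the epidermis between them are both built by keratinocytes that descend from the surface ectoderm. p63, the product of Trp63, keeps stratified epithelia in their progenitor state and is made from a long (TA) start site or from an internal (delta N) start site, of which the internal one is the main source in skin keratinocytes. AP-2 factors (Tfap2a and Tfap2c), KLF5 and GRHL2 act in basal or simple epithelial layers, whereas KLF4, GRHL1, GRHL3, OVOL1 and GATA3 are known for roles in barrier formation or terminal differentiation. Several of these factors act in both settings, GATA3 also in the inner root sheath of the hair, so the division is a convention.

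The reference sequences at the internal start of Trp63 and at the strongest shared open region away from promoters of 4 of these genes (Grhl2, Klf4, Grhl1 and Grhl3) are shown, since the positions below refer to them. Each runs from 50 bases before to 50 after a peak summit in the GRCm38.p6 genome of RefSeq, plus strand, 5′ to 3′. The 5 stretches as shown hold no match to the motifs searched and are in lower case. The motif results below use a longer stretch around each summit. In that longer stretch the sites at the internal start of Trp63, upstream of Grhl2 and in intron 8 of Grhl1 do hold matches. The sites shown are not all of the shared regions, and counts of shared regions with matches are given with the motif results.
Trp63 internal start, chr16:25801838-25801938: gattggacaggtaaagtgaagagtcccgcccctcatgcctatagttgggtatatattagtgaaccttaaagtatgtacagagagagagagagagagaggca
upstream of Grhl2, chr15:37192887-37192987: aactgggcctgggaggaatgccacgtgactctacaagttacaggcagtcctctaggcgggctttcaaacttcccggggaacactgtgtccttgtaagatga
downstream of Klf4, chr4:55481038-55481138: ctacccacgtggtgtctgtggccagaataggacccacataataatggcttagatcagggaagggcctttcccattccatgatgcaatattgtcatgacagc
Grhl1 intron 8, chr12:24593307-24593407: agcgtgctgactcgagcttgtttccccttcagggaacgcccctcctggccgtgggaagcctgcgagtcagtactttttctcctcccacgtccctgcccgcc
upstream of Grhl3, chr4:135623319-135623419: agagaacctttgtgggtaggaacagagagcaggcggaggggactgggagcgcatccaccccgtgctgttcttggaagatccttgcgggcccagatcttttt
The stretch at the internal start of Trp63 ends in a run of GA repeats and is 44.6% G+C. The other 4 are richer in G+C, from 48.5% downstream of Klf4 to 63.4% in intron 8 of Grhl1.

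A peak is an interval called in 1 library with a −log10 q above 2 at its strongest summit. The lists held 29817 peaks in WT, 18518 in KO1 and 37012 in KO2. They give no read totals, so depth was read from the commonest local background, which was highest in WT at 1.74 tags and lowest in KO1 at 0.476 tags, and levels are given as tags at the summit over this background. By this measure WT was 3.65 times and KO2 was 1.66 times as deep as KO1, and the fewest tags with which a summit passed were 9 in WT, 5 in KO1 and 6 in KO2. Values given as 3 numbers below stand in the order WT, KO1, KO2. Peaks of KO1 and KO2 are named with cKO in their lists, and those of KO1 with another library number than its label. The labels were followed. No test between genotypes was run, because there was 1 WT library.

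Every one of the 10 windows held at least 1 peak in every library. The windows together held 65 peaks in WT, 31 in KO1 and 63 in KO2. With tags thinned to the background of KO1, WT held 33 and KO2 held 36, beside the 31 of KO1. Thinning kept tags at random in 1 draw, here and below, and the spread over draws was not measured. The median density was 4.88 peaks per 100 kb of window in WT, 1.66 in KO1 and 4.18 in KO2, beside medians over all protein-coding genes of 1.86, 0.964 and 2.22. In WT the window with the most peaks was that of Grhl2, with 12, more than in 98.7% of all genes. In KO2 it was that of Trp63, with 13, more than in 98.9%. These are the longest windows of the 10, at 230.5 kb for Grhl2 and 308.3 kb for Trp63. By density, Grhl2 in WT ranked above 87.4% of all genes and Trp63 in KO2 above 79.1%. The densest windows were those of Grhl1 in WT, at 6.20 per 100 kb, and of Ovol1 in KO2, at 6.28. Klf5 had the fewest, with 1, 1 and 2 peaks, in KO1 together with Tfap2c, and its density lay below the median of all genes in each library, as did that of Tfap2c in WT and KO1.

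**Figure D1:**
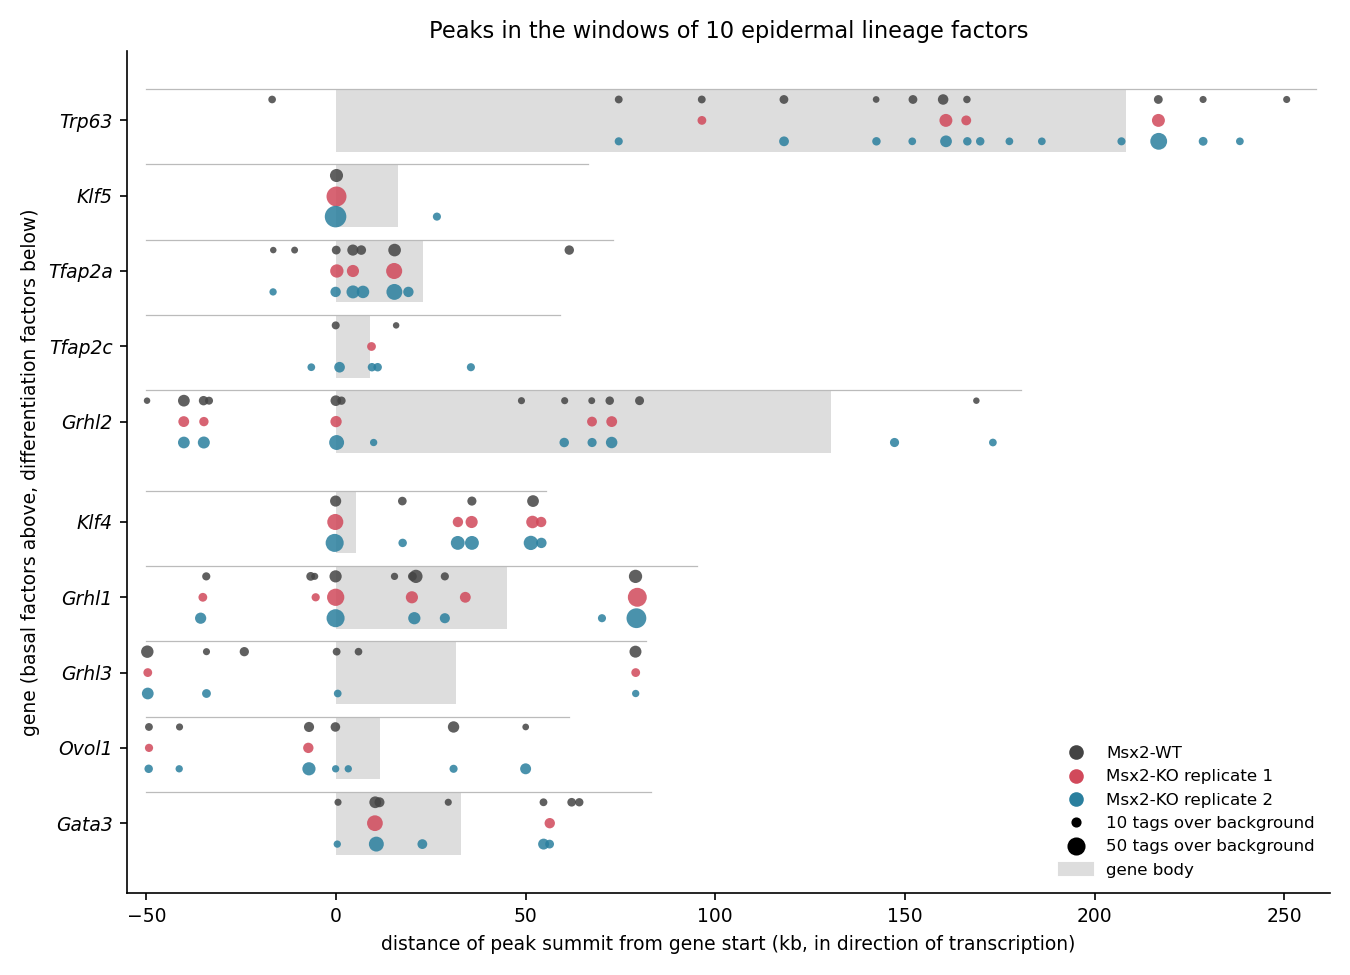
Positions of peak summits in the 10 windows, as distance from the gene start in kb in the direction of transcription, with 1 line of points per library and point area growing with tags over background. Grey boxes are gene bodies and thin lines the windows. The points of the 3 libraries stack at the starts of Klf5, Klf4 and Grhl1, and Klf5 shows 1 further point, in KO2.

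Of the 10 genes, 10 had a promoter peak in WT (47.1% of 21851 genes did), 6 in KO1 (37.9%) and 10 in KO2 (53.7%). A promoter peak is one with a summit within 1500 bases of a start of a protein-coding transcript of the gene. The 6 genes with a promoter peak in all 3 libraries were Klf5, Tfap2a, Grhl2, Klf4, Grhl1 and Gata3, against 35.2% of all genes. The other 4, Trp63, Tfap2c, Grhl3 and Ovol1, had one in WT and KO2, a class that held 9.64% of all genes. None of the 10 lacked a promoter peak in all libraries (43.8% of all genes did), and none had one in both KO libraries but not WT (2.32%) or in WT alone (2.11%). Where the libraries differed at these promoters, KO1, the shallowest library, thus stood apart from the others. At Tfap2c KO1 listed a promoter summit of 4 tags below the threshold, and at Trp63, Grhl3 and Ovol1 it listed none. The gap was smaller at matched depth, with 8, 6 and 8 genes after thinning to the background of KO1. With lists of equal length the counts were 8, 6 and 7, and with a −log10 q of at least 5 they were 8, 5 and 7. With every deposited peak they were 10, 7 and 10. With a narrower promoter they were 10, 5 and 10, and with a wider one 10, 6 and 10.

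**Figure D2:**
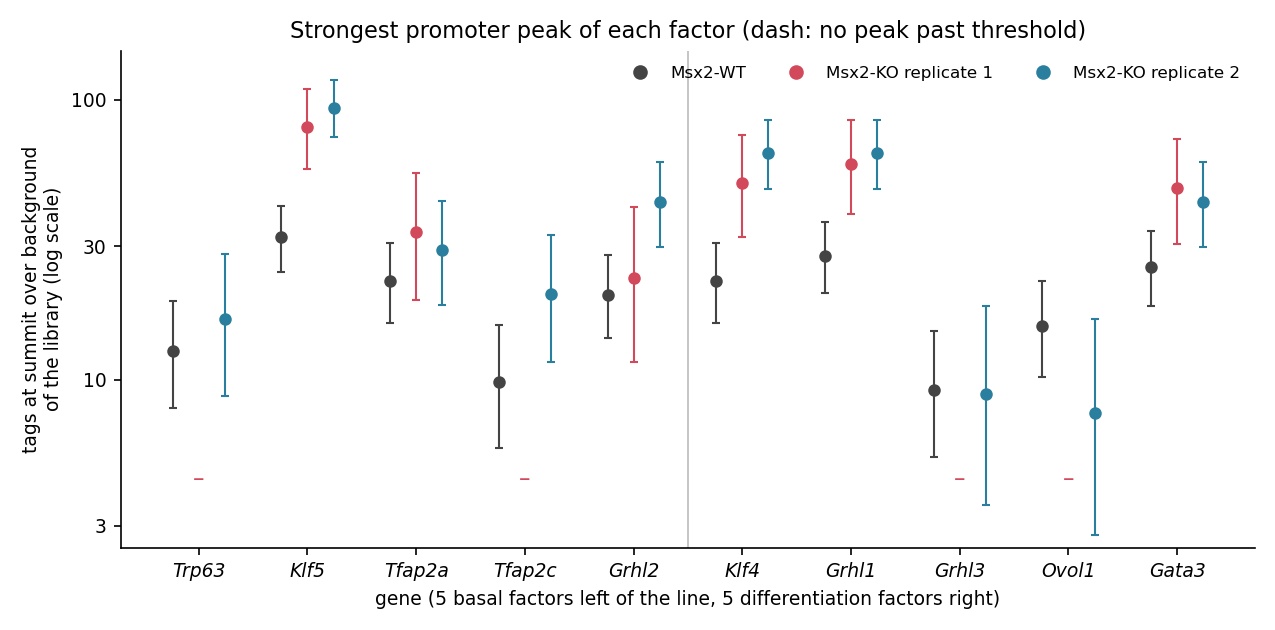
Tags at the summit of the strongest promoter peak of each gene over the background of the library, on a log scale, with 95% Poisson intervals that cover counting error only. Points are libraries, dashes mark genes without a promoter peak, and for Tfap2a and Tfap2c the strongest summits of different libraries can lie at different starts. Klf5 is highest in each library and 4 genes carry a dash in KO1.

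Among the basal factors, Trp63 was examined first. It spans chr16:25683763-25892102 (plus strand), with no other protein-coding gene in its window. Its 16 regions (peaks of the 3 libraries merged where they share a base) comprised 1 at the internal start and 15 away from promoters. No summit was listed within 1500 bases of the long start in any library, even below the threshold. The internal start at 25801916, which lies 118153 bases inside the gene, had a peak in WT and in KO2. In WT the summit lay at -51 from it, with 22 tags (95% Poisson interval 13.8 to 33.3), 12.7 times the background. In KO2 the summit lay at -28, with 13 tags (6.92 to 22.2), 16.5 times the background. The nearest summit of KO1 lay 1718 bases after it, held 5 tags and missed the threshold with a −log10 q of 1.14. Elsewhere in the windows KO1 summits of 5 to 8 tags passed, and others of 5 to 10 tags did not.

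Intronic peaks of Trp63 numbered 7 in WT, 3 in KO1 and 9 in KO2, the internal start included in the first and the last. After the internal start lay 4, 2 and 7 of them, and between the long and the internal start 2, 1 and 1. Of those after it, 4, 2 and 6 lay in intron 4 of the reference transcript (14 exons), from 25820643 to 25862278, and both intronic regions found in all 3 libraries lay there. With a −log10 q of at least 5, WT kept 6 intronic peaks and KO1 and KO2 kept 1 each, and with thinned tags the numbers were 5, 3 and 2, so that the order of WT and KO2 turned. The weaker of the shared intronic regions, chr16:25849242-25850666, had 14, 8 and 9 tags, or 8.05, 16.8 and 11.4 over background.

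One more region shared by all 3 libraries lay past the end of Trp63, at chr16:25900111-25901230, with its summits 216807 to 216907 bases from the long start. It held 22 tags in WT, 15 in KO1 and 44 in KO2, which were 12.7, 31.5 and 55.7 times the background. In KO2 this was the strongest peak of the window. In intron 3 a region at 25779752 to 25780527 was found in WT with 16 tags and KO1 with 6, and was not listed in KO2. In intron 1 a region at 25757865 to 25758712 had a summit at the same base, 25758311, in WT with 16 tags and in KO2 with 8. No region of the window was in both KO libraries and not in WT, 2 were in WT alone and 5 in KO2 alone.

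**Figure D3:**
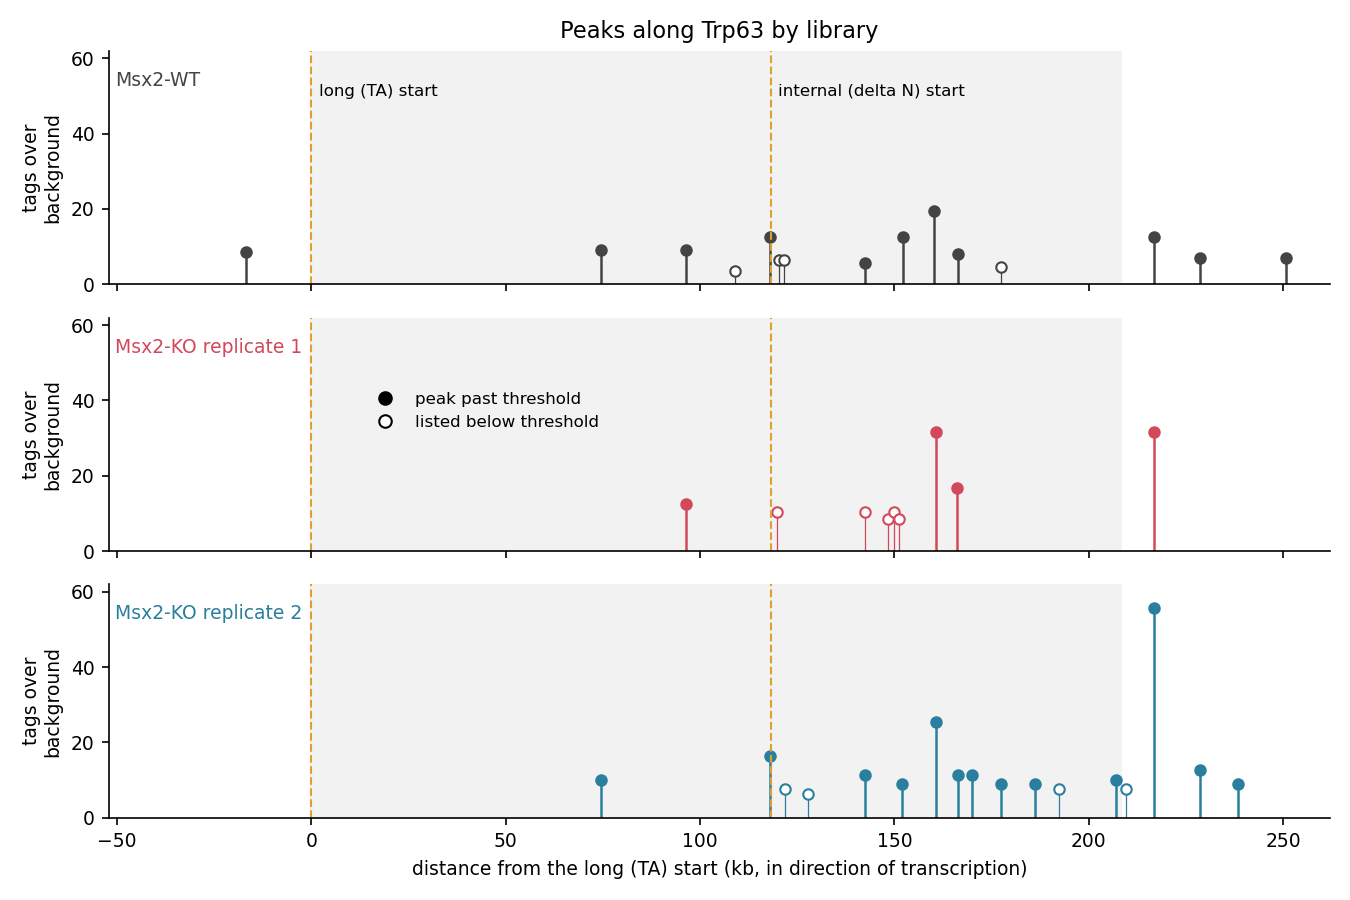
Peaks along Trp63 in each library, as tags over background against distance in kb from the long start, with dashed lines at the long and the internal start and the gene body shaded. Filled points passed the threshold and open points are listed below it. No point stands at the long start, and the KO2 point of 55.7 past the gene end is the highest.

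Klf5, a Krüppel-like factor of proliferating basal cells, spans chr14:99298691-99315036 (plus strand). Its promoter peak was stronger than those of the other 9 genes in all 3 libraries. It held 56 tags in WT (95% Poisson interval 42.3 to 72.7), 38 in KO1 (26.9 to 52.2) and 74 in KO2 (58.1 to 92.9). Over background these were 32.2, 79.8 and 93.6, lowest in WT. Relative to the start the summits lay at -84, -40 and -108. Away from the promoter the window held a single peak, in KO2, with 8 tags.

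Tfap2a and Tfap2c encode AP-2 factors. Tfap2a (chromosome 13, minus strand, 40715302 to 40738376) had 7 peaks in WT, 3 in KO1 and 6 in KO2, of which 3, 2 and 3 lay at promoters of its alternative starts. At the outermost start the summits held 22, 16 and 15 tags, and the level over background was lowest in WT, 12.7, and highest in KO1, 33.6. Tfap2c (chromosome 2, plus strand, 172549593 to 172558622) had 2, 1 and 5 peaks, and it was the only one of the 10 genes without a region shared by all 3 libraries. Its promoter summit held 17 tags in WT and 16 in KO2, or 9.78 and 20.2 over background. These summits were not at one place, since relative to the outer start they lay at -69 in WT and at 945 in KO2. Near that of KO2, at 897, WT listed a summit of 10 tags below the threshold, 5.75 over background.

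Grhl2, a grainyhead-like factor that maintains epithelial junction genes, spans chr15:37233036-37363569 (plus strand). It had 12 peaks in WT, 5 in KO1 and 9 in KO2. Of its 14 regions 5 were in all 3 libraries, the most of any of the 10 genes. The promoter summit held 35, 11 and 34 tags, or 20.1, 23.1 and 43.0 over background. Of the shared distal regions a pair lay upstream of the gene and the others in intron 7. The strongest, chr15:37191867-37193426, lay at -40099 from the start in WT, with 44, 10 and 20 tags, or 25.3, 21.0 and 25.3 over background. Its summits in the 3 libraries fell within 31 bases. On this scale WT was not the lowest library, unlike at most shared regions.

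Among the differentiation factors, Klf4 promotes barrier formation in the upper epidermis. It spans chr4:55527143-55532466 (minus strand), alone in its window. The window held 4 peaks in WT, 5 in KO1 and 6 in KO2, so the shallowest library did not have the fewest, while at 7 of the other genes it had fewer than either other library. The promoter summit held 39 tags in WT (95% Poisson interval 27.7 to 53.3), 24 in KO1 (15.4 to 35.7) and 51 in KO2. Over background these were 22.4, 50.4 and 64.5. All 5 other regions lay downstream of the gene, and 2 of them were in all 3 libraries. At chr4:55480170-55481359 the tags were 44, 14 and 31, or 25.3, 29.4 and 39.2 over background. At chr4:55496192-55497346 they were 24, 13 and 29, or 13.8, 27.3 and 36.7 over background.

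Grhl1, a grainyhead-like factor of desmosome gene expression, spans chr12:24572283-24617391 (plus strand). It had 9 peaks in WT and 6 in each KO library. The promoter summit held 48, 28 and 51 tags, or 27.6, 58.8 and 64.5 over background, with summits at -100, -76 and -102 from the start. The shared region in intron 8, chr12:24591946-24593685, held 58, 13 and 22 tags, or 33.4, 27.3 and 27.8 over background, highest in WT. These are the strongest summits of each library, and they lay up to 1055 bases apart. A second WT peak of the region, with its summit at 24592431, lay near the KO1 summit at 24592302. It held 22 tags, 12.7 over background, less than KO1. Grhl3, needed for the skin barrier, spans chr4:135541888-135573630 (minus strand), with 6, 2 and 4 peaks. Its promoter summit held 16 tags in WT and 7 in KO2, or 9.21 and 8.86 over background, among the weakest promoters of the 10. The shared region upstream, chr4:135623007-135623901, held 50, 6 and 20 tags, or 28.8, 12.6 and 25.3 over background, also highest in WT.

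Ovol1, a zinc finger factor that restrains proliferation of differentiating cells, spans chr19:5549136-5560646 (minus strand). It had 6 peaks in WT, 2 in KO1 and 7 in KO2, but 4 of its 7 regions lay at promoters of other genes, and both regions shared by all 3 libraries were among these. Its own promoter summit held 27 tags in WT and 6 in KO2, or 15.5 and 7.59 over background. Gata3 spans chr2:9857078-9890034 (minus strand), and its protein-coding transcripts start inside that span. It had 7, 2 and 5 peaks. The strongest promoter summit held 44 tags in WT, 23 in KO1 and 34 in KO2, or 25.3, 48.3 and 43.0 over background. Relative to the nearest protein-coding start these summits lay at -1086, -1166 and -789. Neither Ovol1 nor Gata3 had a region away from promoters that was found in all 3 libraries, nor did Klf5 or Tfap2c.

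Basal and differentiation factors were then compared. In WT the basal windows held 33 peaks in 887.2 kb, 3.72 per 100 kb, and the differentiation windows 32 in 626.6 kb, 5.11 per 100 kb. In KO1 the numbers were 14 and 17, or 1.58 and 2.71 per 100 kb. In KO2 they were 35 and 28, or 3.94 and 4.47 per 100 kb. The ratio of basal to differentiation density was 0.728 in WT (exact 95% interval 0.434 to 1.22), 0.582 in KO1 (0.265 to 1.25) and 0.883 in KO2 (0.522 to 1.51). Each interval holds 1 and covers counting error only. It takes peaks as independent and leaves out the spread between genes, so it is not a test between the classes. With tags thinned to the background of KO1 the WT ratio was 0.459, and its interval (0.210 to 0.970), with the same limits, did not hold 1. This value rests on 1 random draw of tags. Peaks at promoters of other genes lay only in the windows of Grhl1, Grhl3 and Ovol1, all differentiation factors. With such peaks left out the ratios were 0.896 in WT (0.520 to 1.56), 0.761 in KO1 (0.332 to 1.76) and 1.12 in KO2 (0.641 to 2.01). Within each class the genes overlapped those of the other: in WT basal factors ranged from 0.860 to 5.69 per 100 kb and differentiation factors from 3.80 to 6.20. Promoter peaks were found at 5, 3 and 5 basal factors and at 5, 3 and 5 differentiation factors in the 3 libraries, the same count in each class.

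**Figure D4:**
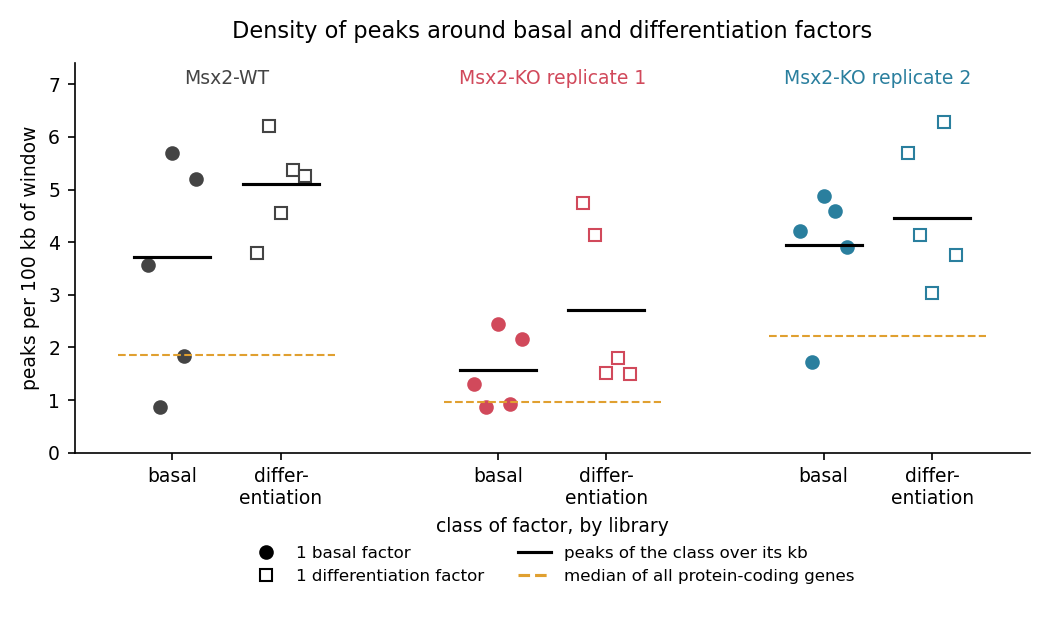
Peaks per 100 kb of window for each gene, by class and library, with black bars for all peaks of a class over its summed kb and dashed lines for the median of all protein-coding genes. Circles are basal and squares differentiation factors. The 2 classes overlap in every library, and the class bars are lowest in KO1, while single genes such as Klf4 are not.

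Merged over libraries, the 10 windows held 83 regions. Of these 24 were in all 3 libraries, 28.9%, against 27.6% of 47562 regions of the genome. A further 19 were in WT and KO2, 22.9% against 14.4%, and 2 in WT and KO1, 2.41% against 0.709%. The regions in both KO libraries and not in WT numbered 4, 4.82% against 7.66%. Regions in WT alone numbered 17, 20.5% against 18.7%. There was 1 region in KO1 alone, against 2.85% of all regions, and 16 in KO2 alone, 19.3% against 28%. Counted in either direction, WT was the odd library at 21 regions (25.3% against 26.4% of all regions), KO1 at 20 (24.1% against 17.3%) and KO2 at 18 (21.7% against 28.8%). The regions that set the genotypes apart were thus about as many as those that set either knockout library apart. Without KO1, 43 regions were in both remaining libraries and 20 in KO2 and not in WT. Without KO2 the regions in WT alone numbered 37. For these counts without a library no share over all regions was computed, so they are not a result particular to these genes. Of the 19 regions in WT and KO2 but not KO1, 7 were listed in KO1 below the threshold. Between the classes, 13 of 46 basal regions and 3 of 37 differentiation regions were in KO2 alone, and 5 of the 13 belonged to Trp63.

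**Figure D5:**
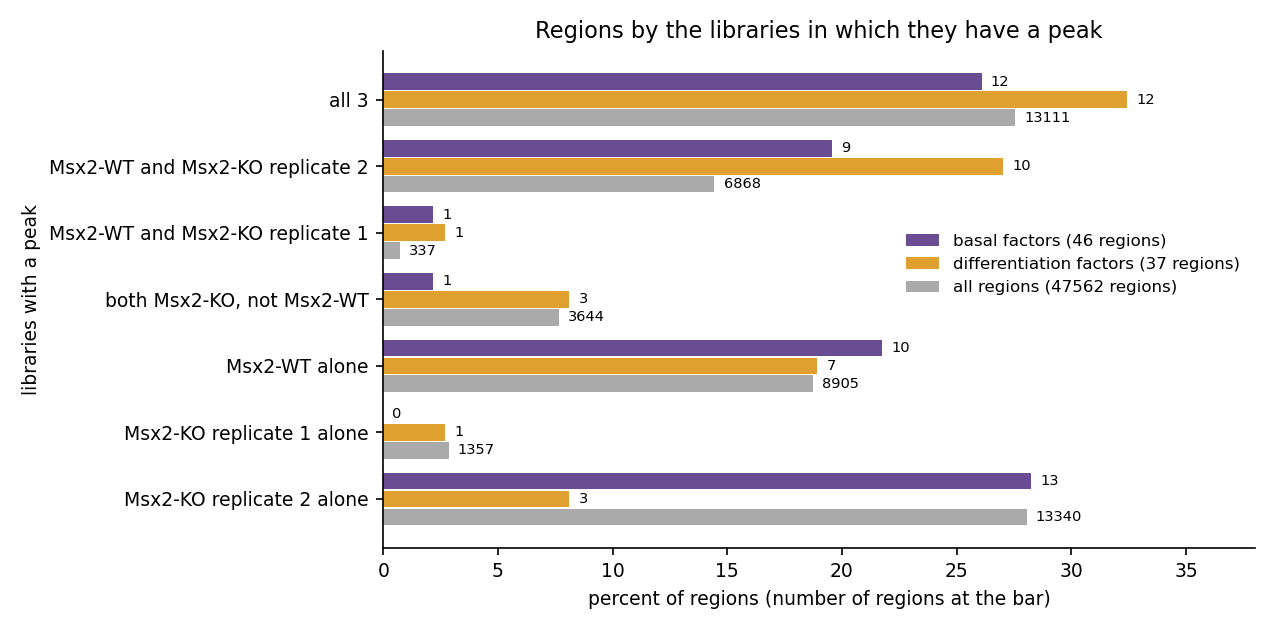
Percent of merged regions by the set of libraries with a peak, for regions of the 5 basal factors, of the 5 differentiation factors and of the whole genome, with the number of regions at each bar. The bar for KO2 alone is 28.3% for basal and 8.11% for differentiation factors, beside 28% of all regions.

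The 4 regions in both KO libraries and not in WT all lay between genes. The first, downstream of Klf4 at chr4:55499998-55500858, had 9 tags in KO1 and 29 in KO2, or 18.9 and 36.7 over background. WT listed 11 tags there, 6.33 over background, with a −log10 q of 1.63 that missed the threshold. The second Klf4 region, chr4:55478132-55478991, had 9 and 15 tags and was not listed in WT, and in KO1 its −log10 q of 2.14 was just past the limit. The Gata3 region, chr2:9833459-9834038, had 9 and 10 tags, and WT listed 8 below the threshold. The Tfap2c region, chr2:172558682-172559635, lay just past the gene end with 6 and 9 tags and was not listed in WT. With a −log10 q of at least 5 in each library none of the 4 was kept as such a region. With lists of equal length such regions numbered 1. With tags thinned to the background of KO1 they numbered 6, beside 8 in WT alone.

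Ranked by their −log10 q, the 5 strongest of the 17 regions in WT alone were those of Tfap2a, Grhl2, Grhl3, Grhl1 and Gata3. The Tfap2a region, chr13:40676688-40677080, had 26 tags, and KO2 listed 4 below the threshold. The Grhl2 region in intron 8, chr15:37312972-37313351, had 23 tags. The Grhl3 region, chr4:135597377-135598328, had 25, and the Grhl1 region, chr12:24565415-24566051, had 22. None of these 3 was listed in either KO library. The Gata3 region, chr2:9827607-9828023, had 21 tags, with 4 listed in KO2. KO1 listed nothing at any of the 17, and KO2 listed 4 of them below the threshold.

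At regions shared by all libraries the level over background was mostly lowest in WT. This held at 7 of 7 shared promoter regions of these genes, with medians of 22.4 in WT, 48.3 in KO1 and 43.0 in KO2. It held at 9 of 13 shared regions away from promoters, with medians of 15.0, 21.0 and 25.3. Over the whole genome it held at 87.4% of 6881 shared promoter regions and 86.9% of 6230 other shared regions, so the order at these genes was that of most regions of the libraries. The lower level of WT went with its higher background, and its part in the values was not tested. A shared region must pass in every library, and the fewest passing tags stood at 5.18 over background in WT, 10.5 in KO1 and 7.59 in KO2. The filter thus admitted lower levels in WT than in KO1 or KO2, and its part in the order was not tested either.

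Regions of these genes away from promoters had a median G+C content of 50.5% within 150 bases of the summit, from 36.2% to 72.1% over 65 regions, and the 12 at their promoters had 64.6%. Motifs were searched on both strands of this stretch in peaks away from promoters. In WT an AP-2 motif (GCCNNNGGC) was found in 9 of 45 such peaks of these genes, 20% against 11.8% of 19948 in the genome. The AP-1 motif (TGANTCA) was found in 7, 15.6% against 21.2%. The GATA motif (AGATAA) was found in 7, 15.6% against 16.6%, and the KLF motif (GGGNGTGG) in 9, 20% against 15.0%. A GRHL motif (AACCNGTT or AACNGGTT, which can overlap each other) was found in 2, 4.44% against 4.87%, and the p63 motif (CATG, any 6 bases, CATG) in none, against 1.72%. In KO2 the AP-2 motif was in 8 of 45, 17.8% against 10.9%, the AP-1 motif in 8, 17.8% against 19.2%, and the GATA motif in 6, 13.3% against 15.4%. The KLF motif was there in 6, 13.3% against 11.6%, and the GRHL motif in 1, 2.22% against 4.07%. In KO1 the AP-2 motif was in 3 of 20, 15% against 11.2%, and the GATA motif in 3, 15% against 15.3%. The shares of 3 other motifs lay on the other side of the genome's than in WT, with the AP-1 motif in 4, 20% against 17.6%, the KLF motif in 2, 10% against 12.2%, and the GRHL motif in 2, 10% against 3.75%. The p63 motif was in none of these peaks in KO1 or KO2. Of the 13 regions shared by all 3 libraries away from promoters, 3 held the GATA motif, 2 each the AP-1, AP-2 and KLF motifs, and none the GRHL or p63 motif. A match to these letters is a description of the sequence and does not show that a factor binds there.

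For comparison, of 8 hair follicle stem cell factors (Sox9, Lhx2, Nfatc1, Tcf7l1, Tbx1, Foxc1, Nfib and Runx1) 6, 7 and 7 had a promoter peak. The median density of the 8 genes was 3.44, 2.70 and 5.50 peaks per 100 kb. Of 7 relatives of the listed factors known from other tissues (Trp73, Klf1, Klf17, Gata1, Gata4, Tfap2b and Tfap2d) 2 had one in each library, Klf1 and Tfap2b. The median density of the 7 genes was 1.84, 1.16 and 1.68 peaks per 100 kb.

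Promoter peaks of marker genes of the sorted and of other cell types were counted. Of 6 HFSC markers (Krt15, Cd34, Lgr5, Sox9, Lhx2 and Nfatc1) 4, 3 and 5 had one, beside 47.1%, 37.9% and 53.7% of all genes. Nfatc1 had none in any library, Lgr5 none in WT, and Krt15 and Cd34 none in KO1. All 3 basal keratinocyte markers (Krt5, Krt14 and Itga6) had one in every library. Of 6 markers of interfollicular or differentiating epidermis, Ly6a (Sca-1), Krt10 and Ivl had one in WT, and none had one in either KO library, and the 6 windows held 21, 3 and 11 peaks. Krt1, Lor and Flg had no promoter peak in any library. This difference runs beside the regions of these genes in WT alone, and its part in them was not tested. Of 4 leukocyte markers none had a promoter peak. Melanocyte markers had one at 3, 2 and 3 of 5 genes (Tyr and Sox10 at none), fibroblast markers at 2, 0 and 2 of 3 (Dcn at none) and endothelial markers at 0, 0 and 1 of 3. A promoter peak does not show that a gene is transcribed, and counts over such short lists do not measure the purity of the sort.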

How the data were processed

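The 10 genes, the division into classes and the lists were chosen with earlier results of these data known. The authors aligned reads trimmed by Trimmomatic with BWA-MEM (genome GRCm38), discarded reads of the mitochondrial genome and ran MACS2 on each library, with no shifting model, a shift of 100 bases, an extension of 200 bases and duplicates kept. Replicates were not pooled. Versions of BWA and MACS2 and any other Tn5 offset are not given in the sources used here. Extension spreads a cut over its window, so summits are not exact cut sites. Duplicates are not independent molecules.

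The authors deposited for each summit a fold enrichment over the local background, a −log10 p and a −log10 q value. These lists hold summits down to a p-value of 0.01 (deposited), and those with a −log10 q above 2 (q-value of 0.01) were kept here. Tags and local background were solved from fold and −log10 p, to within 0.0002 of the deposited −log10 p, for at least 99.9% of summits. The solver was tested on simulated data. Peaks were placed by their strongest summit, and peaks sharing 1 base were merged. Starts, exons and genes are from protein-coding entries of basic GENCODE M21, and all peaks lay inside the GRCm38.p6 chromosomes. Intervals are 95% Poisson for tags and exact conditional binomial for ratios.

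Named were all 10 genes, for each its promoter peaks and its shared region away from promoters whose lowest level over the 3 libraries was highest, all regions in both KO libraries alone, and the 5 WT regions with the largest −log10 q. Some of these regions, and a list of other epidermal regulators, are not reported here. Samples were grouped by the labels. No test was run between genotypes or classes. RNA-seq of the study was not used here. Alternatives are given below. The work used scipy 1.17.1, pysam 0.24.0, pandas 2.3.3, numpy 2.4.6 and matplotlib 3.10.9 under Python 3.11.15.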

Additional observations from a re-analysis of the deposited data

How the results depend on the processing

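Of 122 values recomputed under other settings, 83 stayed within 1.5 times the reported count, or inside the reported interval for the ratios, and 39 did not. All 18 counts of genes with a promoter peak and all 27 density ratios stayed. These limits allowed falls such as from 10 to 7 genes in KO2, and the reported intervals of the ratios were wide. KO1 values could not move with lists of equal length or with thinning, since KO1 itself sets both. Of the 30 ratios with their main values, 29 had an interval that holds 1. The exception was WT thinned to the shallowest background (0.459, 0.210 to 0.970), which rests on 1 random draw of tags. Ratios lay below 1 in 27 of 30. Those above 1 were all of KO2, at 1.18 with 25 kb flanks, 1.001 with 100 kb flanks and 1.12 with promoters of other genes left out. No paired analysis was possible because the groups share 1 replicate number and no result comes from a test. The cause of the shifts was not tested, beyond what each alternative fixes by itself (fewer peaks, fewer libraries, other windows).

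Peaks in the 10 windows, in the order WT, KO1 and KO2, moved to 42, 14 and 29 with a −log10 q of at least 5. With every deposited peak they moved to 104 in WT and 52 in KO1, with lists of equal length to 43 in WT and 29 in KO2, and with thinned tags to 33 and 36. With 25 kb flanks KO1 had 20, and with 100 kb flanks WT had 99 and KO2 had 96. Intronic peaks of Trp63 moved to 1 in each KO library with a −log10 q of at least 5, to 11 in WT and 8 in KO1 with every deposited peak, and in KO2 to 1 with equal length and 2 with thinning. WT had 6 with this threshold, 6 with equal length and 5 with thinning, each time more than KO2.

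Regions in all 3 libraries fell to 12 with a −log10 q of at least 5, 14 with thinning and 15 with 25 kb flanks. Regions in both KO libraries alone were 0 with a −log10 q of at least 5, 7 with every deposited peak, 1 with equal length, 2 with 25 kb and 7 with 100 kb flanks. Regions in WT alone were 39 with every deposited peak, 8 with thinning, 10 with 25 kb and 28 with 100 kb flanks and 30 with 50% reciprocal overlap. Regions in WT and KO2 were 10, 3, 5, 32 and 12 with a −log10 q of at least 5, equal length, thinning, 100 kb flanks and 50% reciprocal overlap. Leaving out either KO library gave 26 to 43 regions shared by the rest, 5 to 20 in the remaining KO library and not in WT, and 19 to 37 in WT alone, where the 20 came without KO1 and the 37 without KO2.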

Other observations

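Peaks at promoters of neighbouring genes shared some windows. The strongest was that of Klf11, 78974 to 79446 bases from the start of Grhl1, with 58 tags in WT, 34 in KO1 and 62 in KO2, or 33.4, 71.4 and 78.5 over background. A peak near the starts of Nipal3 and Stpg1 in the Grhl3 window held 46, 6 and 6 tags, or 26.5, 12.6 and 7.59 over background, highest in WT. In the Ovol1 window the Ap5b1 promoter held 31, 9 and 26 tags, or 17.8, 18.9 and 32.9 over background. The Kat5 promoter there held 16, 5 and 9 tags, or 9.21, 10.5 and 11.4 over background.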
